A study of Mus musculus with 34 samples.

Results

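Nuclear factor I (NFI) transcripts were followed across all RNA-seq groups of a study of CAD cells, a mouse neuroblastoma line of catecholamine-producing type that differentiates into neuron-like cells in serum-free medium. The family has 4 members, Nfia (ENSMUSG00000028565), Nfib (ENSMUSG00000008575), Nfic (ENSMUSG00000055053) and Nfix (ENSMUSG00000001911), out of 37310 gene identifiers counted. The 4 genes were found by symbol, and all 4 passed the filter on low counts in each of the 3 RNA-seq experiments. The family was chosen by measured levels: Nfix differed in opposite directions between cells labelled mir-138 DKO and wild-type (WT) cells, and between cells given a miR-138 mimic and their controls. Those contrasts are therefore described here without a test for any member, and calls in them are given only for genes outside the family. The tests of members below concern serum withdrawal, transfection of the control plasmid, the miR-137 mimic and the interactions. The genotype and miR-138 mimic interactions are the change of those same contrasts between serum and withdrawal. Their p-values are therefore not independent of the choice of the family.

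The 34 libraries fall into 15 groups, 13 of them RNA-seq. In experiment 1, WT and mir-138 DKO cells (a double knockout, per the label) were sampled in 10% serum and after 1 day without it, giving 4 groups of 2 libraries. In experiment 2, WT cells were sampled in serum and after 4 days without it, giving 2 groups of 3 libraries. Experiment 3 used DKO-labelled cells alone, in 7 groups of 2 libraries. One of these was kept in serum and names no transfection; the others received pUC19 DNA (a plasmid used as the control) or a mimic of miR-138 or of miR-137, and were sampled both in serum and after 2 days without it. A mimic is a synthetic double-stranded RNA that supplies a miRNA to the cell; the dose was 3 nM, and 48 h passed between transfection and the change to serum-free medium. The other 6 libraries are small RNA-seq of WT cells, 3 in serum and 3 at 4 days. The 3 libraries at 4 days in experiment 2 are WT by title and protocol while their genotype field reads mir-138 DKO, and they were treated as WT. The labels do not say how many clones the DKO cells came from, nor whether replicates were separate cultures, so p-values measure the spread between libraries, which may be technical. In bulk RNA, fewer cells that carry a transcript and less of it per cell cannot be told apart.

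NFI proteins are transcription factors that bind DNA as dimers, through a conserved DNA-binding domain near the amino terminus, at a palindrome that contains the pentamer TTGGC. They act as activators or repressors depending on the gene. In the developing nervous system Nfia, Nfib and Nfix promote the step from progenitor to glia and the maturation of several kinds of neuron, whereas Nfic is best known for its part in tooth root formation. miRNAs act after transcription: bases 2 to 8 of the miRNA, the seed, pair with sites in mRNAs and lower the level or translation of the mRNA.

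The mature miRNAs that the mimics represent, and 2 others that earlier work has linked to NFI transcripts, are shown because their seeds decide which sites each can pair with. The seed is in capitals, and the sequences and their coordinates come from RefSeq on GRCm38.p6, whereas the counts were made on mm9.

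miR-138-5p: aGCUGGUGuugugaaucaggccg
miR-137-3p: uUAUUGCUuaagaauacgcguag
miR-153-3p: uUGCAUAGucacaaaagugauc
miR-21a-5p: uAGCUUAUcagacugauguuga

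The 4 seeds all differ, so the miR-138 and miR-137 mimics share no seed match: a perfect site for miR-138-5p reads CACCAGC and one for miR-137-3p reads AGCAAUA. miR-138-5p is made from 2 genes, Mir138-1 (chr9:122682898-122682920, plus strand) and Mir138-2 (chr8:94324312-94324334, plus strand), and miR-137-3p from Mir137 (chr3:118433901-118433923, plus strand). Sites in the NFI mRNAs were not searched, because no transcript sequence was used here.

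The assigned reads per library ran from 22359075 to 41505181 in experiment 1, from 19900317 to 28631969 in experiment 2 and from 12740836 to 25582125 in experiment 3. Levels are counts per 1000000 reads (CPM), scaled within an experiment, so levels are compared only within one. The polyA libraries count the precursor transcripts of the targeted miRNA genes, and Mir138-1 does not show a loss in the cells labelled DKO. It had 18 and 18 reads in WT serum libraries of experiment 1 and 242 and 217 in the DKO serum libraries. In experiment 3, which has no WT cells, it had 28 and 29 reads in the untransfected DKO-labelled libraries. Mir138-2 had 0 reads in all 28 libraries, WT ones included, so it could not show a loss. The labels are kept as given. Mature miR-138 was not measured in cells labelled DKO, so these counts cannot decide whether it was lost. The 6 neuronal markers Tubb3, Nefh, Snap25, Map2, Th and Dbh summed to 1083 to 1105 CPM in WT serum libraries and to 70 to 70.5 CPM in the DKO serum libraries of experiment 1, and to 44 to 276 CPM across experiment 3. The sum was thus high in WT libraries and low in cells labelled DKO, but it was mostly Tubb3 and Nefh (group means 466 and 432 CPM in WT serum). Th had a mean of only 2.13 CPM in WT serum, and Map2 had 50.4 CPM there against 31.6 CPM in DKO serum. The top of the experiment 3 range was the miR-137 mimic at 2 days, where Tubb3 alone had a mean of 244 CPM. The 10 glial markers summed to 1.86 to 19.1 CPM, with Gjb6 and Sox10 at 0 throughout, and the 5 microglial and macrophage markers to at most 0.378 CPM, with Ptprc at 0. The 2 DKO serum libraries of experiment 1 differed more than other pairs of that experiment (chi-square per degree of freedom 25.2 against 5.56 to 7.11). The NFI values that use them are given without each, but list genes and counts of listed genes were not recomputed without them. In experiment 2, replicate 1 at 4 days stood apart from replicates 2 and 3 (28.4 and 24.7, against 13.6 between replicates 2 and 3). Leaving out any one library of experiment 2 gave log2 changes of 1.25 to 1.41 for Nfix at 4 days.

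Nfix, the member by which the family was chosen, was low in WT cells in serum and high in cells labelled DKO. In experiment 1 the WT serum libraries had 36.5 and 45.2 CPM and the DKO serum libraries 227 and 275 CPM. At 1 day without serum the WT libraries had 38.6 and 40.7 CPM and the DKO libraries 227 and 249 CPM. The genotype groups did not overlap at either time, while serum and 1 day overlapped within each genotype. The log2 difference between DKO and WT was 2.62 ± 0.11 (SE) in serum, a 6.17-fold difference, and 2.59 ± 0.11 at 1 day. In serum it was 2.47 without DKO replicate 1 and 2.76 without replicate 2.

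With the miR-138 mimic, Nfix in DKO-labelled cells was at the bottom of its range in experiment 3. The mimic libraries in serum had 55.9 and 57.9 CPM against 248 and 250.2 CPM with pUC19. At 2 days they had 70 and 80.9 CPM against 283 and 286 CPM. The log2 difference was -2.13 ± 0.06 in serum, 4.38-fold lower, and -1.92 ± 0.06 at 2 days, 3.78-fold lower. Of the 12655 genes measured in experiment 3, 37 (0.292%) had a more negative difference than Nfix in serum, and 102 (0.806%) at 2 days. Of the 13630 genes of experiment 1, 180 (1.32%) had a larger difference than Nfix between DKO and WT in serum. These values are those by which the gene was picked.

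**Figure D1:**
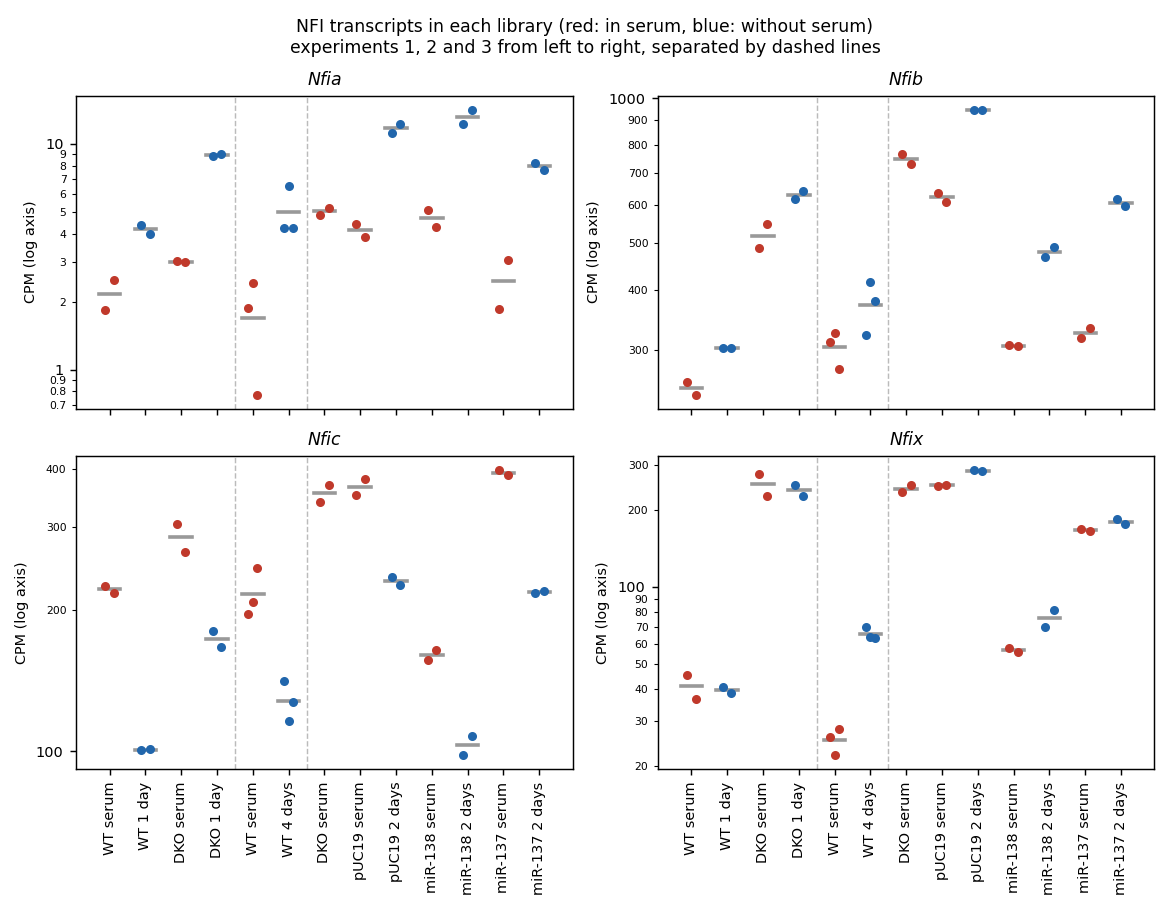
Level of each NFI transcript in every RNA-seq library (CPM, log axis), by group, with the grey bar at the group mean; the vertical dashed lines part the 3 experiments, which were scaled separately. In experiment 3 Nfix lies between 55.9 and 80.9 CPM in the 4 miR-138 mimic libraries and between 165 and 286 CPM in all others, whereas Nfia is higher in every library without serum than in any with serum of the same experiment.

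Nfib, a close relative of Nfia in gliogenesis and also needed for lung maturation, had the same order as Nfix in these contrasts at a smaller size. In experiment 1 it had 243 and 258 CPM in WT serum libraries and 489 and 548 CPM in DKO serum libraries, a log2 difference of 1.05 ± 0.07 (1.12 without DKO replicate 1 and 0.97 without replicate 2). At 1 day the WT libraries had 303 and 304 CPM and the DKO libraries 617 and 641 CPM, again a difference of 1.05 ± 0.07. With the miR-138 mimic it had 306 and 307 CPM in serum against 608 and 637 CPM with pUC19, a difference of -1.02 ± 0.05, and at 2 days the difference was -0.98 ± 0.05. No genotype or miR-138 mimic groups of Nfib overlapped at matched times.

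Nfic, the member known chiefly from tooth root formation, was closer between the genotypes and lower with the mimic. WT serum libraries had 218 and 225 CPM and DKO serum libraries 266 and 305 CPM, a log2 difference of 0.37 ± 0.07, which was 0.78 ± 0.08 at 1 day. The serum value was 0.25 without DKO replicate 1 and 0.47 without replicate 2. In experiment 3 the miR-138 mimic libraries in serum had 156 and 164 CPM against 351 and 381 CPM with pUC19, a difference of -1.19 ± 0.06, and -1.16 ± 0.06 at 2 days. The groups of Nfic did not overlap at matched times in either contrast.

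Nfia, which initiates gliogenesis in the spinal cord, had 18 to 285 reads per library, the fewest of the 4, and its standard errors were the largest. It had 1.83 and 2.48 CPM in WT serum libraries and 2.99 and 3.01 CPM in DKO serum libraries, a log2 difference of 0.47 ± 0.25, and 1.09 ± 0.24 at 1 day. The serum value was 0.28 without WT replicate 1, 0.71 without WT replicate 2, and 0.45 and 0.48 without DKO replicate 1 or 2. With the miR-138 mimic the differences were 0.16 ± 0.18 in serum and 0.17 ± 0.14 at 2 days, on the side opposite to the other 3 members. Leaving out one library moved them from 0.033 to 0.29 in serum and from 0.067 to 0.27 at 2 days, the lowest in serum without mimic replicate 1 and the highest without mimic replicate 2. The serum libraries with mimic (4.26 and 5.08 CPM) and with pUC19 (3.85 and 4.43 CPM) overlapped.

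All 4 members therefore had higher, non-overlapping libraries in DKO than in WT cells in serum, where 19.2% of all genes were called higher (40.7% called in either direction), and at 1 day, where 21.9% were called higher (44.9% in either direction). With the miR-138 mimic in serum 3 of 4 had lower, non-overlapping libraries, where 27.3% of genes were called lower (56% in either direction), and likewise at 2 days, where 31.1% were called lower (62% in either direction). The shares are of genes called by the test, which is a different measure from libraries that do not overlap. The share of all genes without overlap was not computed, so the member counts and these shares cannot be compared. The choice of the family also used these contrasts, so nothing is read from the counts. The neuronal marker sums given above moved with the genotype label. So did the 6 fibroblast markers, from 1.46 to 1.49 CPM in WT serum libraries to 8.15 to 8.8 CPM in DKO serum libraries (Dcn and Col1a2 called higher), and the 10 glial markers, from 9.21 to 12.5 CPM to 4.56 to 5.07 CPM. The part of these markers in the NFI differences was not tested. With the miR-138 mimic in serum 3 of the 6 neuronal markers were called lower and 0 higher. At 2 days 1 neuronal marker was called higher and 1 lower. Of the 5 fibroblast markers tested in experiment 3, 1 was called higher and 0 lower with the mimic in serum.

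**Figure D2:**
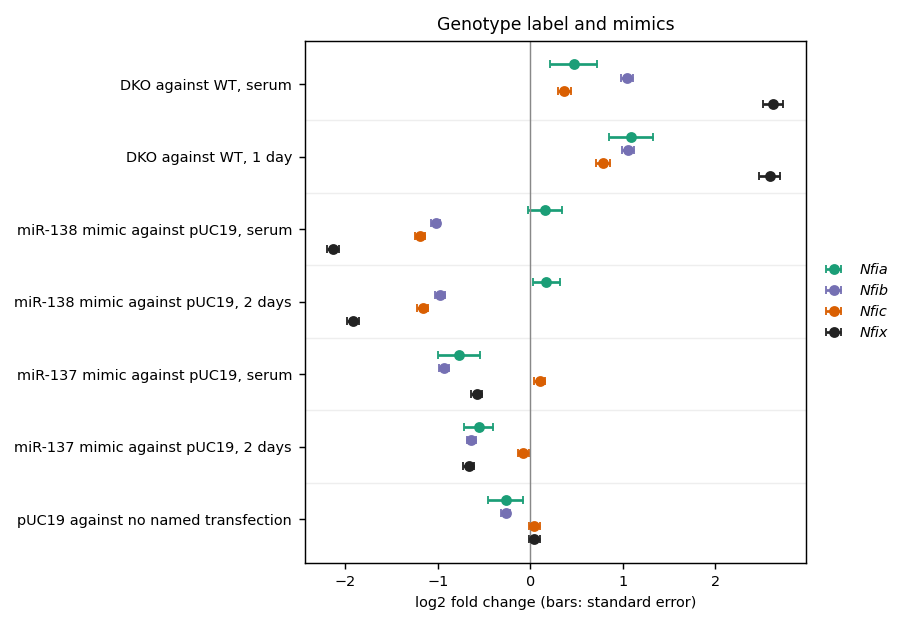
Log2 fold change of the 4 NFI transcripts in the genotype, mimic and plasmid comparisons (points; bars are standard errors). Nfix has the values farthest from 0, 2.62 in DKO against WT and -2.13 with the miR-138 mimic in serum, and the 4 members do not share one pattern with the miR-137 mimic.

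The DNA transfection itself was compared with the DKO-labelled cells for which no transfection is named, both in serum. Of the 4 members only Nfib passed the test, lower with pUC19 by a log2 difference of -0.27 ± 0.05 (edgeR quasi-likelihood test, Benjamini-Hochberg adjusted p = 0.000642), in a comparison where 26.2% of genes were called. The pUC19 libraries had 608 and 637 CPM of Nfib and the others 730.5 and 768 CPM, without overlap. Nfix differed by 0.04 ± 0.06 (adjusted p = 0.625) with overlapping libraries (248 and 250.2 CPM against 234 and 249.6 CPM), Nfic by 0.04 ± 0.06 (adjusted p = 0.61) and Nfia by -0.27 ± 0.19 (adjusted p = 0.314). The titles mark the untransfected cells as DKO_2 and the transfected ones as DKO, so transfection and any difference between these cells cannot be told apart.

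The miR-137 mimic, whose seed differs from that of miR-138, was compared with the same pUC19 libraries that served the miR-138 comparison. In serum Nfib had 318 and 334 CPM with the mimic against 608 and 637 CPM with pUC19, and it fell by a log2 change of -0.93 ± 0.05 (adjusted p = 2.77e-11). Nfix had 165 and 169 CPM against 248 and 250.2 CPM and fell by -0.58 ± 0.06 (adjusted p = 1.31e-07). Nfia had 1.86 and 3.07 CPM against 3.85 and 4.43 CPM and fell by -0.77 ± 0.22 (adjusted p = 0.00843). The groups of these 3 members did not overlap. Nfic had 387.5 and 397 CPM against 351 and 381 CPM, a log2 difference of 0.10 ± 0.06 that did not pass the test (adjusted p = 0.158). Thus 3 of 4 members were called lower and 0 higher, against 22.5% of all genes called lower (45.6% in either direction).

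At 2 days the miR-137 mimic gave the same calls. Nfib fell by a log2 change of -0.64 ± 0.05 (adjusted p = 5.37e-09), from 943.5 and 946 CPM with pUC19 to 597 and 618 CPM. Nfix fell by -0.66 ± 0.06 (adjusted p = 2.35e-08), with 176 and 183.5 CPM against 283 and 286 CPM. Nfia fell by -0.56 ± 0.16 (adjusted p = 0.00705), with 7.63 and 8.23 CPM against 11.1 and 12.2 CPM. Nfic differed by -0.08 ± 0.06 (adjusted p = 0.307). Of all genes 22.2% were called lower at 2 days (42.7% in either direction). The Nfia calls rest on single libraries: in serum its adjusted p became 0.178 without replicate 1 of the miR-137 mimic (log2 difference -0.44) and 0.0848 without replicate 1 of pUC19, and at 2 days 0.0668 without replicate 2 of the mimic. Leaving out other libraries kept the calls.

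Set side by side, the miR-138 and miR-137 mimics had log2 differences in serum of -2.13 and -0.58 for Nfix, of -1.02 and -0.93 for Nfib, of -1.19 and 0.10 for Nfic and of 0.16 and -0.77 for Nfia. The values share their pUC19 libraries and the difference between mimics was not tested. In the order of levels in serum, Nfix was lowest with the miR-138 mimic, then the miR-137 mimic, then the untransfected and pUC19 cells, and the last 2 groups overlapped. For Nfic the order was miR-138 mimic, untransfected, pUC19 and miR-137 mimic, with the untransfected and pUC19 libraries overlapping.

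Serum withdrawal, which makes CAD cells differentiate, was tested in 6 settings: WT cells at 1 day and at 4 days, DKO-labelled cells at 1 day, and DKO-labelled cells at 2 days with pUC19 or either mimic. Nfia and Nfib were called higher and Nfic lower in all 6, whereas Nfix was called higher in 3. Of the 12136 genes tested in all 6 settings, 8.82% were called higher in each and 11.5% lower in each. In the single settings 40.7% of genes were called in WT cells at 1 day (20.4% higher, 20.3% lower), 70.9% in WT cells at 4 days (36.2% higher, 34.7% lower) and 40.3% in DKO-labelled cells at 1 day (19.9% higher, 20.4% lower). At 2 days 59.7% were called with pUC19 (28.4% higher, 31.3% lower), 63.3% with the miR-138 mimic (31.1% higher, 32.2% lower) and 65.8% with the miR-137 mimic (33.2% higher, 32.6% lower).

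Nfix gave the most varied answer to withdrawal. In WT cells of experiment 2 it had 26, 22.1 and 27.8 CPM in serum and 69.5, 63.7 and 63.3 CPM at 4 days. All 3 libraries at 4 days were above all 3 in serum, and Nfix rose by a log2 change of 1.37 ± 0.11 (2.59-fold, adjusted p = 9.06e-08). At 1 day no change was called in WT cells (-0.04 ± 0.11, adjusted p = 0.805) or in DKO-labelled cells (-0.08 ± 0.10, adjusted p = 0.585; 0.063 and -0.19 without DKO serum replicate 1 or 2). At 2 days in experiment 3 it rose by 0.41 ± 0.06 with the miR-138 mimic (adjusted p = 1.73e-05) and by 0.19 ± 0.06 with pUC19 (adjusted p = 0.00699), and the value with the miR-137 mimic was 0.11 ± 0.06 (adjusted p = 0.128). With only the 2 compared groups in the fit this last value was 0.12 and passed the test (adjusted p = 0.0205). The days of withdrawal differ between experiments, as do library preparation and transfection, so time and experiment cannot be told apart.

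Nfib rose at each withdrawal, by log2 changes of 0.28 ± 0.07 in WT (adjusted p = 0.00367) and 0.28 ± 0.06 in DKO-labelled cells (adjusted p = 0.00332) at 1 day. The DKO value was 0.19 without serum replicate 1 and 0.38 without serum replicate 2, and both passed (adjusted p = 0.00863 and 1.18e-05). At 4 days in WT cells it had 313, 326 and 274 CPM in serum and 323, 415 and 380 CPM without, so the groups overlapped, and the change was 0.29 ± 0.10 (adjusted p = 0.0149). In experiment 3 it rose by 0.60 ± 0.05 with pUC19 (adjusted p = 3.97e-09), by 0.65 ± 0.05 with the miR-138 mimic (adjusted p = 1.13e-09) and by 0.90 ± 0.05 with the miR-137 mimic (adjusted p = 1.37e-11). The WT calls depend on single libraries. At 1 day the adjusted p was 0.0664 without WT serum replicate 2. At 4 days it was 0.0547 without serum replicate 1, 0.158 without serum replicate 3 (log2 change 0.19) and 0.0898 without replicate 2 of the 4-day group (0.20).

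Nfic fell at each withdrawal. In experiment 1 it had 218 and 225 CPM in WT serum libraries and 100 and 101 CPM at 1 day, a log2 change of -1.14 ± 0.08 (2.2-fold lower, adjusted p = 8.51e-08). In DKO-labelled cells it went from 266 and 305 CPM to 166 and 180.1 CPM, a change of -0.72 ± 0.07 (adjusted p = 4.55e-06), which was -0.62 and -0.80 without serum replicate 1 or 2. In WT cells at 4 days it had 141, 116 and 127 CPM against 196, 208 and 246 CPM in serum, a change of -0.76 ± 0.10 (adjusted p = 9.61e-06). In experiment 3 it fell by -0.66 ± 0.06 with pUC19, -0.64 ± 0.06 with the miR-138 mimic and -0.84 ± 0.06 with the miR-137 mimic (adjusted p between 2.33e-10 and 2.2e-08). No serum and serum-free groups of Nfic overlapped. In WT cells at 1 day 2.99% of genes had a more negative change than Nfic, the smallest share of the 6 settings. The share was 23.8% in WT cells at 4 days and 5.87% to 10.1% in the DKO-labelled settings.

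Nfia rose at each withdrawal. In experiment 1 it went from 1.83 and 2.48 CPM to 4.39 and 4 CPM in WT cells, a log2 change of 0.95 ± 0.25 (adjusted p = 0.00816), and from 2.99 and 3.01 CPM to 8.82 and 9.02 CPM in DKO-labelled cells, a change of 1.57 ± 0.24 (adjusted p = 0.000129) that was 1.57 and 1.58 without either serum library. In WT cells of experiment 2 it had 1.87, 2.42 and 0.775 CPM in serum and 4.24, 6.52 and 4.24 CPM at 4 days, a change of 1.55 ± 0.42 (adjusted p = 0.00471). In experiment 3 it rose by 1.48 ± 0.17 with pUC19, by 1.49 ± 0.15 with the miR-138 mimic and by 1.69 ± 0.21 with the miR-137 mimic (adjusted p between 4.5e-08 and 4.94e-07). No serum and serum-free groups of Nfia overlapped. In WT cells at 1 day its adjusted p was 0.0713 without WT serum replicate 1 and 0.0597 without replicate 1 of the 1-day group.

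**Figure D3:**
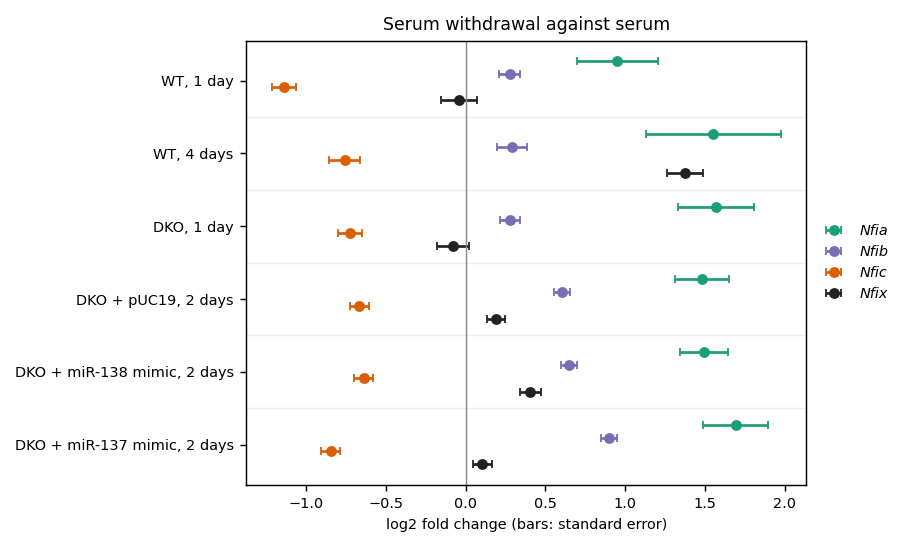
Log2 fold change of the 4 NFI transcripts at serum withdrawal in 6 settings (points; bars are standard errors), against the same cells in serum. Nfia and Nfib lie above 0 and Nfic below 0 in every setting, and Nfix runs from -0.08 in DKO-labelled cells at 1 day to 1.37 in WT cells at 4 days.

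Whether withdrawal acted differently between genotypes or transfections was tested as an interaction. The genotype and miR-138 mimic interactions are built from the contrasts by which the family was chosen, so their p-values serve as descriptions. Nfic fell less in DKO-labelled than in WT cells at 1 day, by a log2 difference of 0.41 ± 0.11 (adjusted p = 0.0242), in a test that called 9.72% of genes. That call was lost when any one of 5 of the 8 libraries was left out (adjusted p 0.0763 to 0.137): both WT serum libraries, both WT 1-day libraries and replicate 1 of DKO at 1 day. Nfib rose more with the miR-137 mimic than with pUC19, by 0.30 ± 0.07 (adjusted p = 0.00496), where 23.3% of genes were called, and this call was kept without each library (adjusted p up to 0.0368). For the miR-138 mimic against pUC19 no member passed, where 27.8% of genes were called. The nearest was Nfix at 0.21 ± 0.09 (adjusted p = 0.0714), which passed only without replicate 1 of the miR-138 mimic at 2 days (0.31, adjusted p = 0.0131). The other interaction values were between -0.18 and 0.62, with adjusted p of 0.124 or more.

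Genes that earlier work has linked to NFI factors in brain or other tissues were collected in a list of 21, of which 13 or 14 passed the count filter. The list was not split by reported direction and holds genes reported as repressed, such as Ezh2. Its counts and medians therefore have no expected sign. At 4 days in WT cells 8 of 13 were called higher and 3 lower, with a median log2 change of 0.45 against 0.04 over all genes, of which 36.2% were called higher and 34.7% lower. At 1 day 3 of 14 were called higher and 3 lower in WT cells, and 6 higher and 3 lower in DKO-labelled cells, against 19.9% to 20.4% of all genes in each direction. At 2 days 8 of 13 were called higher in each of the 3 transfected settings and 3 or 4 lower, with medians of 0.83 (pUC19), 0.56 (miR-138 mimic) and 1.21 (miR-137 mimic), against -0.02 to 0.02 over all genes, of which 28.4% to 33.2% were called higher and 31.3% to 32.6% lower.

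Aldoc, a glycolytic enzyme that marks astrocytes in brain, rose in all 6 withdrawals by log2 changes of 2.65 to 4.42. In WT cells it had 7.71 to 12.6 CPM in serum and 156 to 260.2 CPM at 4 days (4.32 ± 0.20, adjusted p = 3.41e-10). Ezh2, the histone methyltransferase of Polycomb that NFI factors are reported to repress, fell in all 6, by -3.08 in WT cells at 4 days (adjusted p = 3.57e-09) to -0.48 with the miR-138 mimic. Nes, an intermediate filament of neural progenitors, also fell in all 6 (-2.04 to -0.52). Hes1, a Notch effector that keeps progenitors dividing, fell in 5 and was 0.12 ± 0.08 with pUC19 (adjusted p = 0.211). Zcchc24, a zinc-finger gene, rose in 5, by 3.82 ± 0.29 at 4 days (adjusted p = 4.84e-08), with 0.37 ± 0.19 in WT cells at 1 day (adjusted p = 0.142). Cdkn1a, the inhibitor of cell-cycle kinases also called p21, was called higher in 2 settings and lower in 2, from 1.76 in WT cells at 4 days to -1.57 with pUC19.

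**Figure D4:**
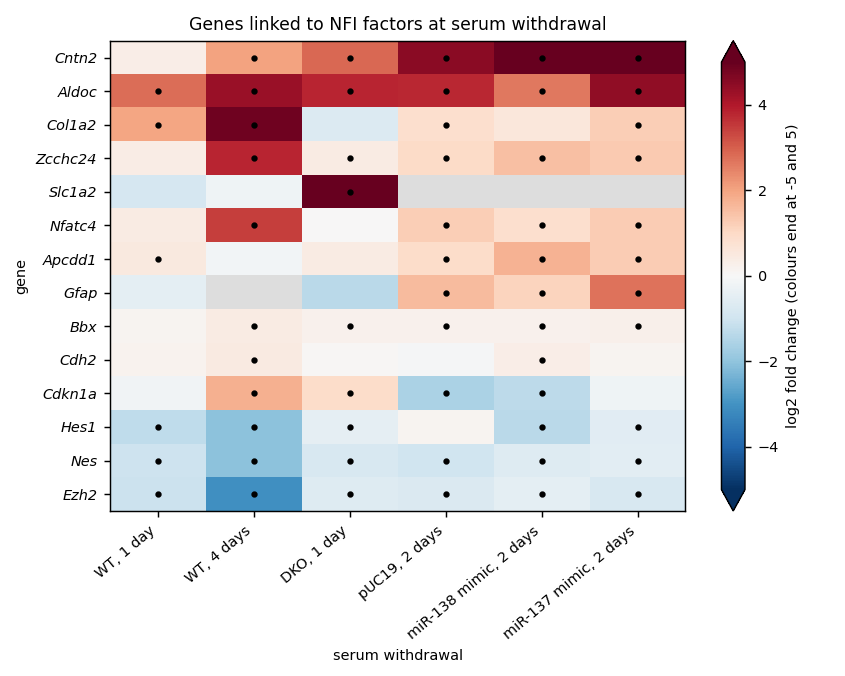
Log2 fold change at serum withdrawal of the 14 listed NFI-linked genes that could be tested, in 6 settings; a dot marks an adjusted p under 0.05, grey marks genes not tested, and the colour scale ends at -5 and 5. Aldoc is higher and Ezh2 and Nes are lower in all 6 settings, whereas Cdkn1a changes sign between settings.

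Some of these listed genes also mark other cells. Gfap and Slc1a2 are glial markers and Col1a2 is a fibroblast marker; Gfap had a group mean of at most 0.991 CPM, and the fibroblast marker Col3a1 was at 0 in every library. The summed fibroblast markers (6 genes) went from 0.559 to 1.56 CPM in WT serum libraries to 7.31 to 8.98 CPM at 4 days and with the miR-138 mimic from 9.97 to 12.2 CPM in serum to 37.1 to 38.1 CPM at 2 days. With pUC19 they went from 7.07 to 7.43 CPM to 26.2 to 28.2 CPM, and with the miR-137 mimic from 4.07 to 4.79 CPM to 14.6 to 15.4 CPM. The summed glial markers (10 genes) were 8.78 to 10.3 CPM in serum and 5.13 to 10.2 CPM at 4 days in WT cells, and 4.29 to 5.49 CPM in serum and 17.5 to 19.1 CPM at 2 days with the miR-138 mimic. With pUC19 they were 4.42 to 4.87 CPM and 9.8 to 10.95 CPM, and with the miR-137 mimic 1.86 to 2.57 CPM and 7.7 to 9.16 CPM. Their part in the changes was not tested.

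With the miR-137 mimic, 1 of 13 listed genes was called higher and 4 lower in serum, and 3 higher and 3 lower at 2 days, with median differences of -0.18 and -0.20 against -0.01 and -0.02 over all genes. Of all genes 45.6% were called in serum (22.5% lower) and 42.7% at 2 days (22.2% lower). Cdkn1a was higher by 0.96 ± 0.10 in serum (adjusted p = 3.45e-07) and by 2.33 ± 0.12 at 2 days (adjusted p = 1.27e-11), with 90.8 and 105 CPM against 16.2 and 23.1 CPM. Aldoc was lower at both times (-1.46 and -0.81), Hes1 was lower at 2 days (-0.75 ± 0.09, adjusted p = 7.22e-07) and Apcdd1, a membrane inhibitor of Wnt signalling linked to Nfia and Sox9, was higher at 2 days (0.70 ± 0.15, adjusted p = 0.000842).

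Of 10 listed partners and upstream factors of NFI genes, 6 or 7 could be tested. Sox9, which induces Nfia in the spinal cord and then acts with it, rose by 0.71 ± 0.12 in WT cells at 4 days (adjusted p = 0.000129), rose in DKO-labelled cells at 2 days by 0.28 ± 0.06 with pUC19 (adjusted p = 0.000415) and 0.14 ± 0.06 with the miR-138 mimic (adjusted p = 0.0483), and fell in DKO-labelled cells at 1 day (-0.83 ± 0.07, adjusted p = 9.88e-07). At withdrawal with the miR-137 mimic its value was 0.084 ± 0.06 (adjusted p = 0.243). It was lower with the miR-137 mimic in serum (-0.66 ± 0.06, adjusted p = 3.48e-08) and at 2 days (-0.85 ± 0.06, adjusted p = 1.25e-09). Pax6, a progenitor factor upstream of NFI genes in cortex, fell by -2.26 ± 0.23 in WT cells at 4 days (adjusted p = 8.14e-07), and Ski, a corepressor that partners Nfix, rose by 0.72 ± 0.08 (adjusted p = 1.24e-06). In all, 4 of 7 were called higher and 2 lower in WT cells at 4 days, 0 higher and 2 lower at 1 day in WT cells, and 0 higher and 3 lower at 1 day in DKO-labelled cells. Over all genes 70.9% were called at 4 days and 40.7% and 40.3% at 1 day.

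In small RNA of WT cells miR-138-5p had 7921, 4938 and 7411 CPM in serum and 11384, 11230 and 10782 CPM at 4 days. The groups did not overlap, and it rose by a log2 change of 0.72 ± 0.18 (adjusted p = 0.0206, adjusted over 715 miRNAs, of which 35.8% were called), over the same days in which Nfix rose 2.59-fold. miR-137-3p rose by 0.75 ± 0.13 (adjusted p = 0.0056), from 4143 to 5785 CPM in serum to 8332 to 8902 CPM. miR-153-3p rose by 0.98 ± 0.16 (adjusted p = 0.00461), whereas no change was called for miR-21a-5p (-0.06 ± 0.09, adjusted p = 0.594). Serum replicate 2 stands apart from the other small RNA libraries (r of log2 CPM as low as 0.877) and had the lowest miR-138-5p, miR-137-3p and miR-153-3p levels. Without it the rises were 0.51, 0.59 and 0.81, and each passed (adjusted p = 0.000702, 0.000519 and 0.000412). Without a 4-day library the adjusted p of miR-138-5p was 0.0533 to 0.0825, and with scaling by library totals alone its change was 0.44 (adjusted p = 0.107). With that scaling miR-21a-5p was lower (-0.34, adjusted p = 0.0241). miR-223-3p, which is reported to act on Nfia in blood cells, had 0 to 31 reads and was not tested.

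Across libraries, the members differed in which other genes their levels followed. Likeness was the lowest of the 3 Pearson r of log2 CPM within the experiments, over 8, 6 and 14 libraries and 9324 genes, where libraries of one group share their condition, so the r are descriptions. Nfix was followed most closely by Cavin1 (0.92), Fgfr1 (0.91) and Zfp362 (0.91), Nfic by Carm1 (0.98), Cherp (0.97) and Gtf3a (0.96), Nfia by Kdm2a (0.92), Asah1 (0.91) and Slc25a36 (0.90), and Nfib by Cstf2t, Scamp2 and Map3k1 (0.83 each). By Spearman rho, Asah1, Cstf2t and Carm1 were again among the nearest 3 genes of their member, and the genes nearest to Nfix were Slc4a2, Oprd1 and Ptgfrn. Among the members, Nfib and Nfix had r of 0.95, 0.66 and 0.76 in the 3 experiments, and Nfia and Nfic had -0.38, -0.96 and -0.71.

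The genes next to each member on the chromosome, by their order in RefSeq, were taken as a local comparison. Of the 16 nearest protein-coding neighbours, 12 could be tested in experiments 1 and 2 and 11 in experiment 3. At 4 days in WT cells 3 were called higher and 5 lower, at 1 day in WT cells 1 higher and 1 lower, and with the miR-137 mimic in serum 1 higher and 4 lower, where 70.9%, 40.7% and 45.6% of all genes were called. The 3 neighbours of Nfib that could be tested, Mpdz, Lurap1l and Zdhhc21, were all called higher in DKO-labelled than in WT cells in serum and at 1 day, with median log2 differences of 0.66 and 0.87, where 19.2% and 21.9% of all genes were called higher. Mpdz, next to Nfib, had 103.5 and 117.5 CPM in WT and 202 and 245 CPM in DKO serum libraries. Its log2 difference was 1.02 ± 0.09, and that of Nfib, which was not tested, was 1.05. With the miR-138 mimic in serum 1 of the 3 was called higher and 0 lower, and Nfib was -1.02. At 2 days 1 was called higher and 1 lower, and Nfib was -0.98. Over all genes 56% were called in serum (27.3% lower) and 62% at 2 days (31.1% lower). The 4 neighbours of Nfix are Lyl1, Trmt1, Dand5 and Gadd45gip1, of which 1 was called higher and 2 lower at 4 days. In DKO-labelled against WT cells in serum, 1 of these 4 was called higher and 0 lower. Of the 3 tested neighbours of Nfic 0 were called higher and 1 lower there, and of the 2 of Nfia 0 were called in either direction. Over all members 4 of 12 tested neighbours were called higher and 1 lower in serum, and 4 higher and 2 lower at 1 day. The full NFI palindrome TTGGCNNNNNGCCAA was found in 0 of the 4 Nfix promoter windows of 300 bases, the 1 of Nfia and the 1 of Nfic, and in 12 of 32851 windows of all genes (0.0365%), searched on both strands. Nfib had no window in the table. The pentamer TTGGC on either strand was in 3 of the 4 Nfix windows, in 0 for Nfia and Nfic, and in 46.7% of all windows.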

How the data were processed

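The authors deposited unnormalized read counts, per gene for RNA-seq (STAR, mm9) and per mature miRNA for small RNA (cutadapt, BWA). These names come from the submitters' processing notes, and versions and annotation were not given in the sources used here. Per the labels, experiments 1 and 2 used dUTP paired-end libraries and experiment 3 stranded single-end libraries, so the reverse-strand counts were used. Opposite-strand reads were at most 10.8% of Nfix reads in any library. Symbols were matched for 32620 of 37310 identifiers (87.4%). Experiments were fitted separately in edgeR 4.0.16 (R 4.3.3): filterByExpr with a minimum count of 10 and a total of 15, TMM scaling, the two-sided quasi-likelihood test, and Benjamini-Hochberg adjustment over all genes at 0.05. Called, rose and fell refer to that test. SE is the absolute log2 change divided by the square root of F.

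On simulated data, 2-fold changes were recovered for 74.5% of changed genes in WT at 1 day and 77% in WT at 4 days. The values were 88% for the miR-137 mimic in serum and 52.8% for miRNAs. False calls were 3.25, 8.33, 7.37 and 4.08%, in the same order. Each simulation changed 200 genes (178 for miRNAs), fewer than were called in the data, so these rates may not carry over to the data. Members and lists were chosen with earlier results of these data known; the lists come from general knowledge of NFI biology, not from a database. Up to 4 genes of a list were named per comparison, lowest adjusted p first, with at least 2 CPM in a group, and the same genes were followed across the withdrawals. The neighbours and the most alike genes followed fixed rules. Alternatives were DESeq2 1.42.0, RLE scaling, no filter, the replicate number as a block, unstranded counts, the compared groups alone, each library left out and, for miRNAs, library totals alone. Replicate numbers were checked for pairing by the correlation of deviations from group means (-0.229 to 0.141 across RNA-seq pairs), and the block was not used.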

Additional observations from a re-analysis of the deposited data

Results flagged for a closer look

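For Nfic the response to 1 day without serum differed between DKO-labelled and WT cells by 0.41 on the log2 scale (interaction, edgeR adjusted p = 0.0242): the fall was -1.14 in WT and -0.72 in DKO-labelled cells. That call was lost when any one of 5 of the 8 libraries was left out (adjusted p 0.0763 to 0.137). For Nfib the response to 2 days without serum differed between the miR-137 mimic and pUC19 by 0.30 (adjusted p = 0.00496): the rise was 0.90 with the mimic and 0.60 with pUC19. The Nfic difference is built from the DKO and WT contrasts used to choose the family, so its p-value serves as a description. Both differences were singled out because the test of the difference itself passed. Their causes were not tested.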

How the results depend on the processing

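Under alternatives that keep all libraries, 389 member and miRNA values kept direction and side of the threshold (or, where only described, moved by less than 1 SD), and 7 did not. For Nfib in the genotype interaction the value turned to -0.011 with RLE scaling and with DESeq2, and in the miR-138 mimic interaction Nfia turned to -0.025 and Nfic to -0.015 without a filter; none of these passed in any of those fits. Nfix with the miR-137 mimic at withdrawal passed with the compared groups alone (0.12), miR-138-5p no longer passed with library totals alone (0.44), and miR-21a-5p then passed (-0.34). Leaving out one library, which leaves some groups with 1 sample assumed to vary like the others, gave these ranges for results that crossed the threshold or 0. In WT cells at 1 day they were 0.75 to 1.18 for Nfia, 0.22 to 0.31 for Nfib and -0.20 to 0.11 for Nfix, and in DKO-labelled cells -0.19 to 0.063 for Nfix. For the genotype interaction they were -0.068 to 0.12 for Nfib, 0.35 to 0.53 for Nfic and -0.19 to 0.12 for Nfix. At 4 days they were 0.19 to 0.38 for Nfib. For pUC19 against no named transfection they were -0.018 to 0.11 for Nfic and -0.0074 to 0.088 for Nfix. For the miR-137 mimic Nfia gave -1.16 to -0.44 in serum and -0.63 to -0.49 at 2 days, and -0.11 to 0.60 in the interaction. For the miR-138 mimic interaction they were -0.12 to 0.13 for Nfia, -0.053 to 0.082 for Nfic and 0.095 to 0.31 for Nfix. miR-138-5p gave 0.51 to 0.83 and miR-21a-5p -0.12 to 0.035. The numbers of features called ranged from 615 to 2602 (1325 with all libraries) for the genotype interaction, the highest without DKO serum replicate 1, from 1730 to 2764 (3321) for pUC19 against no named transfection, and from 154 to 399 (256) for miRNAs. The causes were not tested.

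The replicate numbers were not shown to pair the libraries. With the replicate block no member call changed: Nfic in the genotype interaction was 0.41 (adjusted p = 0.00517) and Nfix at 4 days 1.38 (adjusted p = 1.28e-07). Groups of 2 or 3 libraries limit every test, and Nfia is limited by its low counts.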
